A study of Mus musculus with 8 samples.

Results

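The uroplakins and a few genes of the urothelium and its squamous relatives were read in the kidneys of NEKO mice and their controls. The genes were taken from a list of names, chosen with earlier results of these data known: the uroplakins Upk1a, Upk1b, Upk2, Upk3a and Upk3b, the basal cell regulator Trp63, the differentiation regulator Grhl3 and the envelope protein Ivl. Of these 8 listed genes, 7 had at least 1 probe that could be named, out of 18217 genes named on the array, and these 7 had 9 probes. Probes detected well above background in 4 or more of the 8 kidneys were kept, which left 7 probes and 6 testable genes. Ivl (NM_008412), a precursor of the cornified envelope of squamous epithelium, had 1 probe, well above background in none of the 8 kidneys, and no probe was named for Grhl3.

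Agilent mouse arrays in 1 colour measured whole kidney RNA of 8 mice, each at 8 weeks of age and each on an array of its own. All 8 mice carried Nrf2Flox/Flox on a mixed background with contributions of 129Sv/J and C57BL/6J. The 4 NEKO mice, 2 females and 2 males, were Keap1-/-::Nrf2Flox/Flox::K5-Cre. The 4 littermate controls, also 2 females and 2 males, were Keap1+/-::Nrf2Flox/Flox, with K5-Cre in 3 of them (K1Cre) and without it in 1 female (K1). Keap1 targets the transcription factor Nrf2 for degradation. Cre under the Keratin5 promoter removes Nrf2 in squamous epithelium, so that NEKO mice have Nrf2 released in most other tissues. Each mouse is named here by its group and its number: controls 1 (K1) and 8 and NEKO 2 and 3 were female, and controls 4 and 7 and NEKO 5 and 6 were male.

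Urothelium lines the urinary tract from the renal pelvis to the bladder, and in the kidney it covers the pelvis and papilla as a thin layer beside far larger amounts of tubule. Its superficial umbrella cells carry plaques built from pairs of uroplakins: the tetraspanin Upk1a pairs with Upk2, and the tetraspanin Upk1b pairs with Upk3a or Upk3b. Upk3b is also a known product of mesothelium, and Trp63 and Krt5 mark the basal layer. Whether the K5-Cre of NEKO and K1Cre mice removed Nrf2 in that layer was not measured. In whole kidney RNA, more cells of a type and more RNA per cell cannot be told apart.

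RefSeq (GRCm38.p6) gave a window of 250 bases before the start of the transcript for 3 of the uroplakins. They are shown because these genes are the subject of every comparison that follows, and because these windows could be searched for letters known from Nrf2 and epithelial regulators. The windows lie at chr7:30612735-30612984 on the minus strand for Upk1a, chr15:85016891-85017140 on the plus strand for Upk3a and chr5:136038246-136038495 on the plus strand for Upk3b, and are written 5′ to 3′ with matches to a searched motif in capitals.
Upk1a: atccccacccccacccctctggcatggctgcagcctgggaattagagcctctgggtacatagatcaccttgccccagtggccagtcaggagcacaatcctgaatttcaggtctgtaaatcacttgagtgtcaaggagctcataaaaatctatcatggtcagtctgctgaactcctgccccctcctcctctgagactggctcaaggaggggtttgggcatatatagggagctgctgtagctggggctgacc
Upk3a: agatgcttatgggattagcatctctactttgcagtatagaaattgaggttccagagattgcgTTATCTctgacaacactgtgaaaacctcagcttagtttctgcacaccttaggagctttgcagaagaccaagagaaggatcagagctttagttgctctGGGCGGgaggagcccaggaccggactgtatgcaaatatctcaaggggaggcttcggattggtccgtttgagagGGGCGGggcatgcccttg
Upk3b: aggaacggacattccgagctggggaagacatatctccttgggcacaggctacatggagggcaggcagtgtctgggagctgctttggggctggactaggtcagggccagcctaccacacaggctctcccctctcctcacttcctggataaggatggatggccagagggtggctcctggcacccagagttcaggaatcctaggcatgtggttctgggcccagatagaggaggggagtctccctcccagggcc
Both strands were searched for 5 motifs: the antioxidant response element (TGACNNNGC), letters bound by Grainyhead-like factors (AACNNGTT), the AP-1 site (TGACTCA), letters of the GATA factors, which read AGATAA, and the GC box of Kruppel-like factors (GGGCGG). The Upk3a window held 1 GATA match on the minus strand, from 188 to 183 bases before the start, and 2 GC boxes, of which the nearer ended 13 bases before the start. The Upk1a and Upk3b windows held none of the 5. Over all 32851 RefSeq windows of this length, the antioxidant response element was found in 10.16%, the Grainyhead-like letters in 3.641%, AP-1 in 4.463%, GATA in 9.988% and the GC box in 32.74%. A match is a run of letters, not a bound site.

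Levels below are log2 of the processed signal less the 75th percentile of the probes of the same array, so 0 is the level of a fairly bright probe and a difference of 1 is 2-fold. Levels of different probes cannot be set against each other. The effect of genotype was fitted in limma with sex as a term, and p-values were adjusted over all 19593 genes and unnamed transcripts tested. A gene is called at an adjusted p under 0.05. Each slide held a single sex, so that slide cannot be told apart from sex, whereas both groups lay on each slide. The share of probes detected ran from 61.8% to 65.7% over the arrays, with the groups overlapping, and no probe was saturated. The transcript of Keap1 itself was lower in every NEKO mouse, at 0.20 ± 0.17 (SD, n = 4) against 1.84 ± 0.07 (SD, n = 4), a log2 difference of -1.63 (SE 0.10, adjusted p = 0.0046). All 6 testable genes of interest were well above background in all 8 kidneys, and all 6 listed markers of the proximal tubule, the main cell type of kidney, were measured with a summed linear level of 455 to 610 times the array's 75th percentile.

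Over both sexes, none of the 6 tested genes was called in either direction, in a fit where 0.225% of all that was tested was called. At an unadjusted p under 0.05, 3 of the 6 (Upk1b, Upk2 and Upk3b) were higher in NEKO kidneys, beside 7.37% of all that was tested. Averaged over the sexes in a model where sex and genotype interact, which gives the same differences with a smaller error, 2 of the 6 were called (Upk2, adjusted p = 0.011, and Upk3b, adjusted p = 0.041), beside 1.26% called higher. The median log2 difference of the 6 was 0.85, beside -0.03 over everything tested. Within the males, 4 uroplakins (Upk1b, Upk2, Upk3a and Upk3b) were called higher in NEKO kidneys, beside 2.72% of all that was tested, and within the females none was, beside 0.0408%. The median difference was 1.55 within the males and 0.13 within the females. A direct test of the male against the female difference called none of the 6, beside 0.0153% of everything tested, although 3 of the 6 (Upk1b, Upk2 and Upk3a) had a larger difference in males at an unadjusted p under 0.05, beside 6.87%. The within-sex values come from that same model, rest on 2 mice against 2 and borrow their error from all 4 sets of mice.

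**Figure D1:**
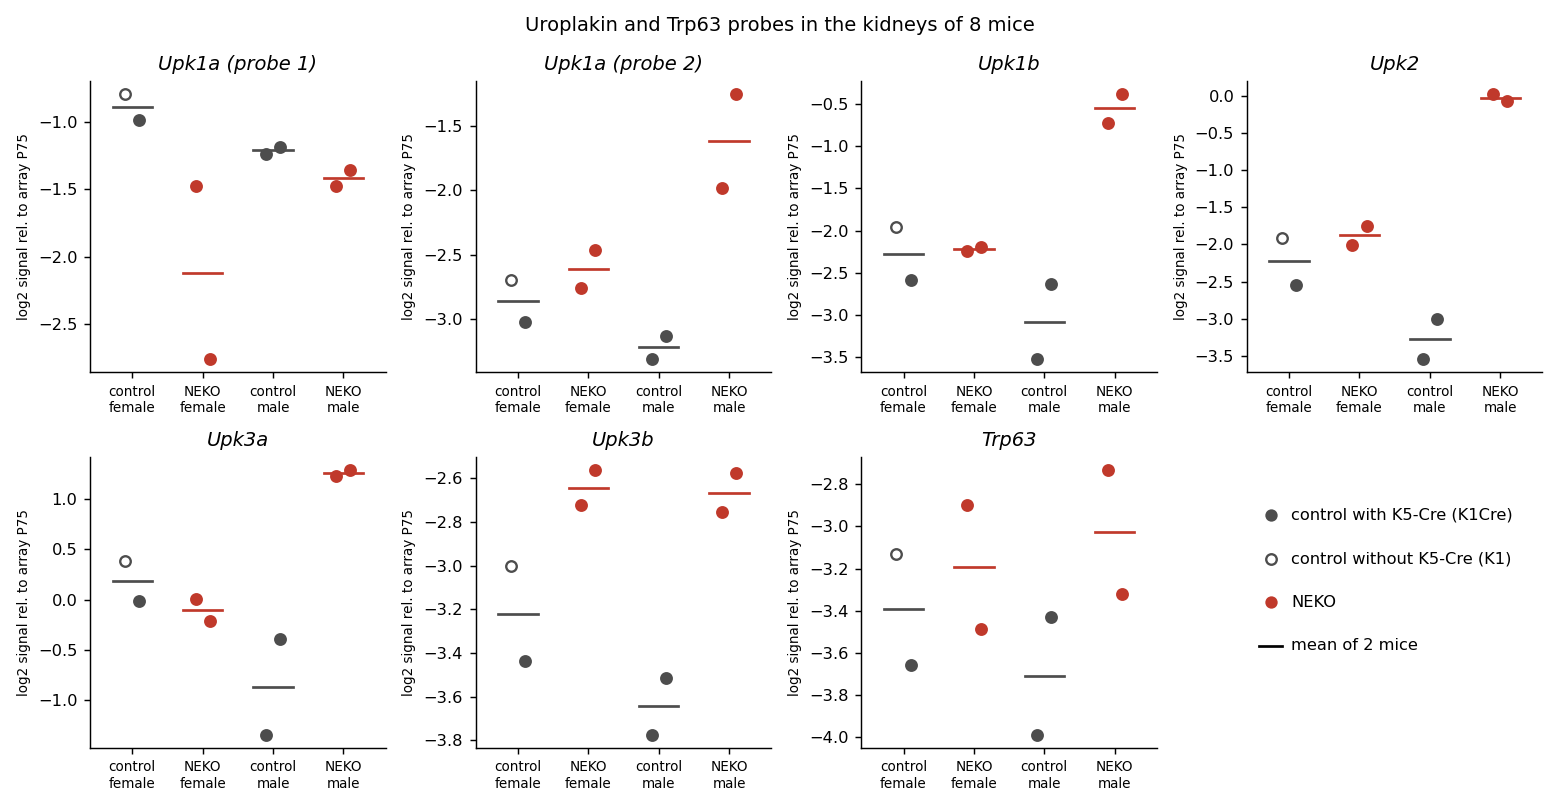
Log2 signal less the 75th percentile of all probes (P75) for the 7 kept probes, with 1 point per mouse and a line at the mean of the 2 mice of a sex and group. Upk1b, Upk2 and Upk3a were highest in the 2 NEKO males, Upk3b was higher in all 4 NEKO mice than in all 4 controls, and the 2 probes of Upk1a went in opposite directions.

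Upk2 (NM_009476), the partner of Upk1a, had the largest difference of the members. Its level was -1.91 and -2.54 in the control females, -3.54 and -3.00 in the control males, -2.00 and -1.75 in the NEKO females, and 0.021 and -0.070 in the NEKO males. The NEKO males thus stood far above every other kidney, while the NEKO females lay within or just above the range of the control females. The group means were -0.95 ± 1.07 (SD, n = 4) in NEKO and -2.75 ± 0.69 (SD, n = 4) in control mice, a difference of 1.80 (SE 0.57, adjusted p = 0.19). Within the males the difference was 3.24 (SE 0.26, adjusted p = 0.0052), or 9.48-fold. Within the females it was 0.35 (SE 0.26, adjusted p = 0.69). The male difference exceeded the female difference by 2.89 (SE 0.37, unadjusted p = 0.00021, adjusted p = 0.091), which misses the threshold.

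Upk1b (NM_178924), the tetraspanin partner of Upk3a and Upk3b, had nearly the same order of mice. It was at -1.96 and -2.59 in the control females, -3.52 and -2.64 in the control males, -2.24 and -2.19 in the NEKO females, and -0.72 and -0.39 in the NEKO males. For Upk1b the NEKO males alone lay outside the range of the 4 controls. Group means were -1.39 ± 0.97 (SD, n = 4) against -2.68 ± 0.64 (SD, n = 4) in controls, and the difference of 1.29 (SE 0.51, adjusted p = 0.26) was not called. In the males it was 2.52 (SE 0.33, adjusted p = 0.017), or 5.74-fold, and in the females 0.058 (SE 0.33, adjusted p = 0.97). The male difference was larger by 2.46 (SE 0.47, adjusted p = 0.14).

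Upk3a (NM_023478), a single-pass uroplakin with a cytoplasmic tail, had levels of 0.38 and -0.019 in the control females and -1.34 and -0.39 in the control males. The NEKO females had 0.0028 and -0.21, and the NEKO males 1.23 and 1.29. The NEKO females fell inside the control range, so that the groups overlapped except for the males. Over both sexes the means were 0.58 ± 0.79 (SD, n = 4) and -0.34 ± 0.74 (SD, n = 4), with a difference of 0.92 (SE 0.50, adjusted p = 0.37), which was 0.49 without control 4. The males alone differed by 2.12 (SE 0.31, adjusted p = 0.023), or 4.36-fold. The females alone differed by -0.29 (SE 0.31, adjusted p = 0.80). The excess in males was 2.41 (SE 0.44, adjusted p = 0.13).

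Upk3b (NM_175309) was the member whose 2 sexes were closest in NEKO mice. It stood at -3.00 and -3.44 in the control females, -3.77 and -3.51 in the control males, -2.72 and -2.56 in the NEKO females, and -2.75 and -2.58 in the NEKO males. Every NEKO kidney was above every control kidney, which was so for 3.88% of everything tested, and the NEKO mice were tightly grouped. The means of -2.65 ± 0.10 (SD, n = 4) and -3.43 ± 0.32 (SD, n = 4) differed by 0.78 (SE 0.14, adjusted p = 0.078). An exact two-sided permutation test of 4 mice against 4 gave p = 0.0286, the smallest it can give. The difference was 0.98 (SE 0.18, adjusted p = 0.042) in the males, or 1.97-fold, and 0.58 (SE 0.18, adjusted p = 0.49) in the females. The 2 sexes differed by 0.40 (SE 0.26, adjusted p = 0.67).

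Of the genes known from mesothelium, 9 were listed, Upk3b and Krt19 among them. Lrrn4 and Bnc1, defining markers of that layer, were not well above background in any kidney, and Muc16 had no named probe. Msln, an adhesion protein of the mesothelial surface, was 0.67 higher in NEKO mice (SE 0.30, adjusted p = 0.29), with a difference of 1.27 in the males and 0.073 in the females. The summed linear level of the 6 tested genes, in units of the array's 75th percentile, ran from 6.76 to 8.59 in controls and from 8.02 to 9.80 in NEKO mice. Without Upk3b and Krt19 it ran from 5.75 to 8.05 in controls and from 5.49 to 8.43 in NEKO mice. That smaller sum is mainly a reading of Gpm6a, a membrane glycoprotein with log2 levels of 2.11 to 2.86. Msln, at -2.29 to -0.44, added far less to it. Gpm6a differed by -0.19 (-0.69 in the males and 0.32 in the females). The part of mesothelium in the Upk3b difference was not tested.

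Upk1a (NM_026815), the tetraspanin partner of Upk2, was the only uroplakin with more than 1 kept probe, and its 2 probes disagreed. The brighter probe, from which the gene was read, gave -0.80 and -0.99 in the control females, -1.24 and -1.19 in the control males, -1.48 and -2.76 in the NEKO females, and -1.48 and -1.36 in the NEKO males. On this probe every NEKO kidney was below every control kidney (5.39% of everything tested; exact permutation p = 0.0286), and NEKO 3 was far below the rest. The means were -1.77 ± 0.66 (SD, n = 4) and -1.05 ± 0.20 (SD, n = 4), with a difference of -0.71 (SE 0.32, adjusted p = 0.29), made up of -1.22 in the females and -0.20 in the males. Without NEKO 3 the difference was -0.36.

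The dimmer Upk1a probe followed the order seen for Upk2 and Upk1b. It gave -2.70 and -3.02 in the control females, -3.31 and -3.13 in the control males, -2.76 and -2.46 in the NEKO females, and -1.98 and -1.25 in the NEKO males. Here 3 of the 4 NEKO kidneys were above all controls. Fitted by itself among all kept probes, where 0.227% were called, it was 0.92 higher in NEKO mice (SE 0.31, adjusted p = 0.22). Within the males the difference was 1.60 (SE 0.26, adjusted p = 0.030), a call that 2.35% of kept probes shared, and within the females it was 0.25. The mean of both probes differed by 0.11 (adjusted p = 0.86), so the direction for Upk1a over both sexes is not settled by these arrays.

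Trp63 (NM_011641), the p53 relative that maintains basal epithelial cells, was low. Its kept probe was at -3.13 and -3.66 in the control females, -3.99 and -3.43 in the control males, -2.90 and -3.49 in the NEKO females, and -2.73 and -3.32 in the NEKO males. The groups overlapped in the females, and in the males the lower NEKO mouse was just above the higher control. The difference was 0.44 (SE 0.24, adjusted p = 0.37), with 0.68 in the males (SE 0.33, adjusted p = 0.33) and 0.20 in the females. The other Trp63 probe was well above background in NEKO 2 alone and entered no test.

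Part of the larger difference in males lay in the controls. Control males were below control females by 1.04 for Upk2 (-1.04 as male minus female), 0.80 for Upk1b (-0.80) and 1.05 for Upk3a (-1.05), whereas NEKO males were above NEKO females by 1.85, 1.66 and 1.36. Control 4 had the lowest level of all 8 mice for Upk1b, Upk2, Upk3a, Upk3b, Trp63 and the dimmer Upk1a probe. That was not particular to the members. The same mouse was the lowest for Krt5, Krt19, Ly6d, Psca and Lypd3, and not for Krt7 or Krt8. Among Nrf2 target genes it was the lowest for Nqo1, Abcc4, Srxn1, Gsta1 and Gstm1, and not for Txnrd1, Gclc, Gclm or Hmox1. Control 1, a female and the only control without K5-Cre, had the highest level of the 4 controls on every kept probe. Control 8, the K1Cre female, was at -2.54 for Upk2, -2.59 for Upk1b and -0.019 for Upk3a. Control 7, a K1Cre male, was at -3.00, -2.64 and -0.39. The gap between control males and females thus holds K5-Cre as well as sex, and the part of each was not tested. Without control 4, Upk2 and Upk3a were still called within the males and Upk1b (2.08, adjusted p = 0.063) and Upk3b (0.85, adjusted p = 0.21) were not. Without NEKO 5, or without NEKO 6, Upk2 alone was called within the males. With 2 mice of each kind, each of these counts rests on single kidneys, and the lone male left in such a fit is assumed to vary like the other mice.

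The keratins of the urothelium gave the highest male median of all the lists examined. Of 11 listed, 10 were tested and Krt4 was not well above background in any kidney. None was called over both sexes. At an unadjusted p under 0.05, 8 of the 10 were higher, beside 7.37% of everything tested, and the median difference was 1.13, with 1.81 in the males and 0.44 in the females. In 3 (Krt5, Krt18 and Krt19) every NEKO kidney was above every control kidney, beside 3.88% of everything tested.

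Krt19, a keratin of all urothelial layers and of ducts, was at -0.18 and -0.82 in the control females, -1.44 and -1.14 in the control males, 0.29 and 0.39 in the NEKO females, and 1.61 and 1.54 in the NEKO males. The groups did not overlap in either sex, and the NEKO males were again the highest. The difference was 1.85 (SE 0.41, adjusted p = 0.11), with 2.86 in the males (SE 0.22, adjusted p = 0.0044) and 0.84 in the females. Krt18, a keratin of simple epithelia, was higher by 1.03 over both sexes (adjusted p = 0.15) and was called within the males at 1.67 (SE 0.21, adjusted p = 0.014).

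Krt5, the basal keratin whose promoter drives the Cre, was at -1.20 and -1.56 in the control females and -2.85 and -1.78 in the control males. It was at -1.03 and 0.36 in the NEKO females and 0.55 and 0.13 in the NEKO males. NEKO 3, a female, thus stood with the NEKO males for Krt5, which was not so for Upk1b, Upk2 or Upk3a. The difference was 1.85 (SE 0.46, adjusted p = 0.14), with 2.66 in the males (adjusted p = 0.051) and 1.04 in the females. Krt15, another basal keratin, gave 1.47 (SE 0.48, adjusted p = 0.20), and Krt20, the keratin of umbrella cells, gave 1.37 (SE 0.45, adjusted p = 0.20) with control 1 as high as the NEKO mice.

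**Figure D2:**
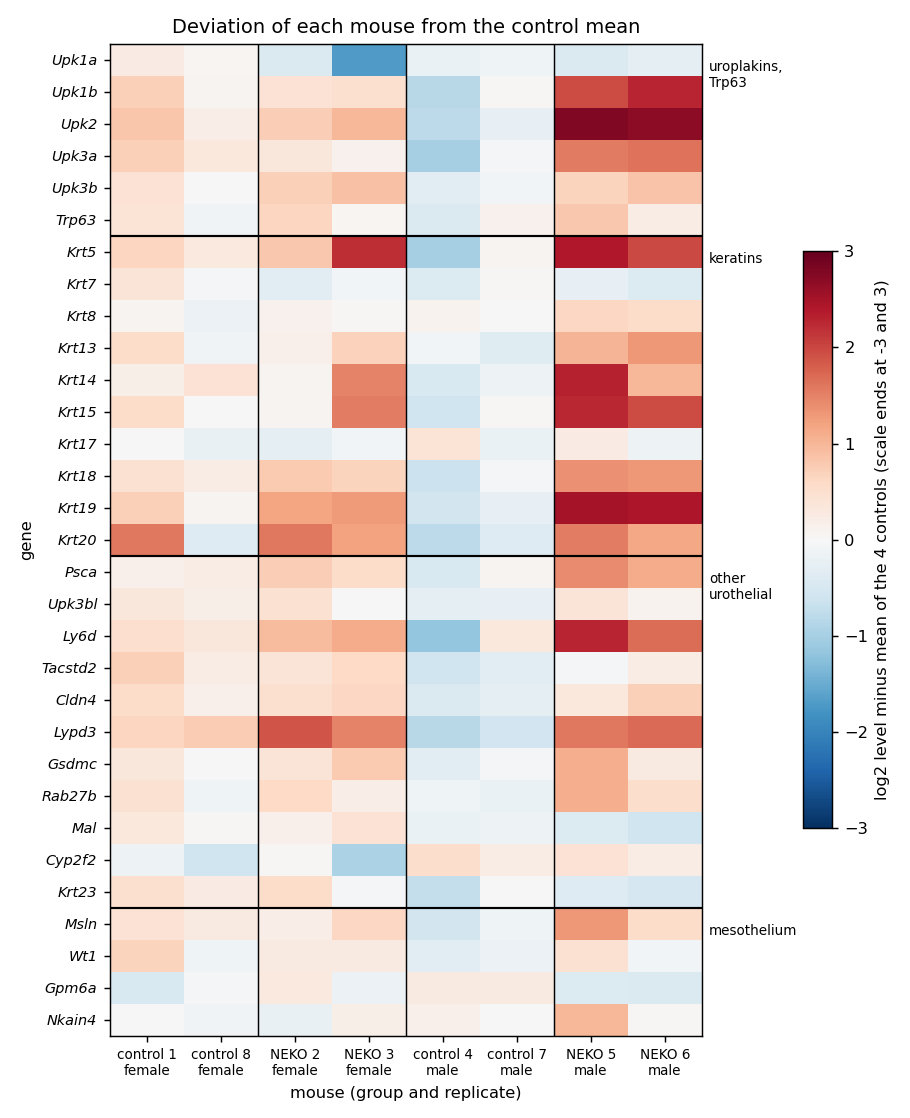
Log2 level of each mouse minus the mean of the 4 controls, with a row per tested gene and a column per mouse, for the uroplakins and Trp63, the urothelial keratins, other urothelial genes and the mesothelium genes not shown above them. The 2 NEKO males are the highest for Upk1b, Upk2, Upk3a and Krt19, and control 4 is the lowest for Upk1b, Upk2, Upk3a, Upk3b and Trp63.

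Among 15 other genes known from urothelium, 11 were tested, Fxyd3 and Trim31 were not well above background in any kidney, and none was called over both sexes. At an unadjusted p under 0.05, 6 of the 11 were higher and none lower, beside 7.37% and 10.6% of everything tested. The median difference was 0.54. Lypd3, a glycolipid-anchored surface protein of stratified epithelia, was at -4.41 and -4.29 in the control females, -5.89 and -5.65 in the control males, -3.18 and -3.57 in the NEKO females, and -3.48 and -3.35 in the NEKO males. It was well above background in all 4 NEKO kidneys and in the 2 control females, and not in the control males. With the control signals as read, it was higher in every NEKO kidney, with a fitted difference of 1.67 (SE 0.28, adjusted p = 0.067) that rests in part on those undetected controls. Within the males it was called higher in the fit to the signals as read (adjusted p = 0.0036). A bound took each control male at the higher of its own signal and the lowest signal detected on its array. With that bound, its level was at least 3.70-fold higher in NEKO males, and the bounded difference was not tested. Ly6d and Psca, both of the same Ly6 family, were also above all controls in all 4 NEKO kidneys, beside 3.88% of everything tested. Their differences were 1.505 (SE 0.46, adjusted p = 0.18) and 0.96 (SE 0.23, adjusted p = 0.13). Both were called within the males at 2.40 (adjusted p = 0.047) and 1.45 (adjusted p = 0.019).

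**Figure D3:**
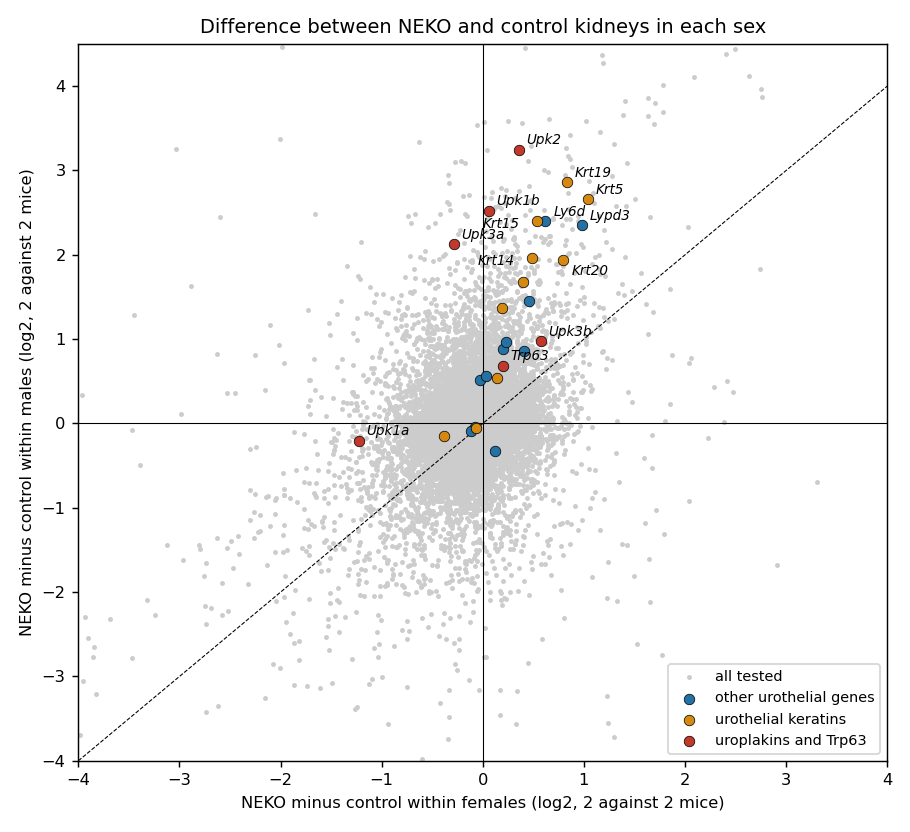
Log2 difference between NEKO and control kidneys within the females (horizontal axis) and within the males (vertical axis), with 1 point per gene or transcript tested, coloured for the uroplakins and Trp63, the urothelial keratins and the other urothelial genes; 21 grey points lie outside the frame and the dashed line marks equal differences. Upk1b, Upk2 and Upk3a lie between -0.29 and 0.35 for the females and above 2 for the males, and Upk1a lies left of the others.

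The regulators of urothelial and squamous differentiation moved less. Of 12 listed, 10 were tested, none was called over both sexes, and the median difference was 0.18. Klf5, a zinc finger factor of epithelial progenitors, was higher in every NEKO kidney, by 0.69 (SE 0.14, adjusted p = 0.10), and was called within the males at 0.93 (adjusted p = 0.041). Grhl1, a relative of Grhl3, differed by 0.50 (SE 0.24, adjusted p = 0.32), with 1.05 in the males (adjusted p = 0.027) and -0.061 in the females. Pparg, a nuclear receptor needed for umbrella cell maturation, differed by 0.36 (SE 0.12, adjusted p = 0.20).

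Genes of uroplakin vesicle traffic had a median difference of -0.038 over the 9 tested of 10, and none was called over both sexes or within either. Rab27b, the small GTPase of uroplakin vesicles, differed by 0.60 (SE 0.23, adjusted p = 0.24), and the SNARE Vamp7 by 0.31 (SE 0.08, adjusted p = 0.14). These 2 of the 9 were higher at an unadjusted p under 0.05, beside 7.37% of everything tested. Rab27b stands on 2 lists and is also among the 6 of 11 other urothelial genes higher at that threshold. The other tetraspanins, relatives of Upk1a and Upk1b, had a median of 0.0045 over the 18 tested of 19, and none was called over both sexes. Tspan1 had the largest difference of that list, at -1.21 (SE 0.26, adjusted p = 0.11), and was called lower within the males at -1.69 (adjusted p = 0.032).

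The cornified envelope and squamous genes, the family of Ivl, were detected in part: of 30 listed, 15 were tested and 11 were not well above background in any kidney, among them Krt1, Krt6a, Dsg3 and Sprr3. The median of the 15 was 0.025, and none was called over both sexes. Sprr1a, an envelope precursor, was at -0.20 and -0.94 in the control females, -1.69 and -0.82 in the control males, -0.0065 and 0.49 in the NEKO females, and 1.81 and 1.58 in the NEKO males. Every NEKO kidney was above every control kidney, and the order of the 4 sets of mice was that of Krt19. Its difference was 1.88 (SE 0.47, adjusted p = 0.14), with 2.95 in the males (adjusted p = 0.015). Sprr2g, of the same cluster, was high in the NEKO males alone, at -1.78 and -1.48 beside -4.34 to -3.92 in the other 6 mice, a male difference of 2.57 (adjusted p = 0.0036) and a female one of 0.12. Pkp1, a desmosomal plaque protein, was called higher within the males in the fit to the signals as read (adjusted p = 0.029). Its control males were again not well above background, and bounded as for Lypd3 the difference was at least 3.24-fold. Sprr2e was also called higher within the males. Krt10, a suprabasal keratin of skin, was called lower there (-1.48, adjusted p = 0.016), beside 1.54% of everything tested.

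**Figure D4:**
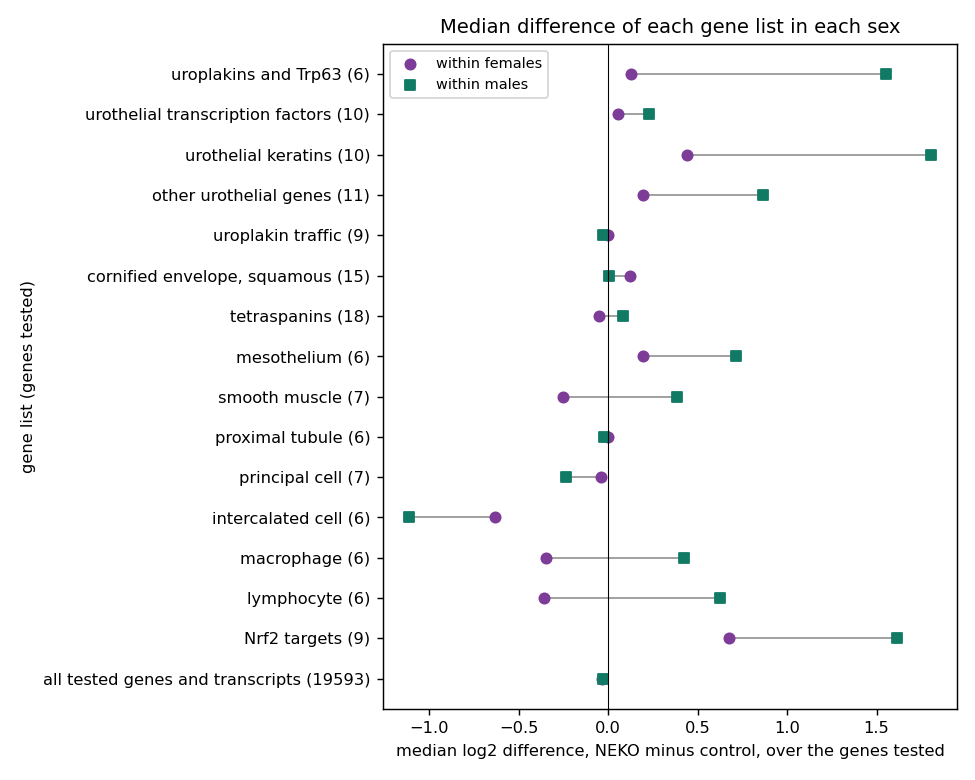
Median log2 difference between NEKO and control kidneys over the tested genes of each list, within the females (circles) and within the males (squares), with the number of genes tested in brackets. Uroplakins, urothelial keratins and Nrf2 targets have male medians above 1.5, everything tested has a median near 0 in both sexes, and the intercalated cell list is below 0 in both.

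Markers of the other cell types in the kidney moved as follows beside the uroplakins. Proximal tubule and principal cell markers had medians of -0.013 and -0.22. No proximal tubule marker was called within the males, but Slc5a2 was lower in every NEKO kidney (-0.43, adjusted p = 0.12), beside 5.39% of everything tested. The principal cell marker Hsd11b2 was called lower within the males (-1.46, adjusted p = 0.019), beside 1.54% of everything tested. Intercalated cell markers had a median of -0.90, 4 of the 6 were called lower within the males (1.54% of everything tested), and their summed level ran from 30.3 to 40.1 in controls and from 4.00 to 19.0 in NEKO mice. Smooth muscle had 0.17, macrophages -0.05 and lymphocytes 0.12, with male medians of 0.38, 0.42 and 0.63 and female medians of -0.25, -0.35 and -0.36. The macrophage gene Lyz2 (2.67, adjusted p = 0.032) and the lymphocyte gene Cd3g (1.199, adjusted p = 0.022) were called higher within the males. Of the 9 tested Nrf2 target genes, 1 (Txnrd1) was called higher over both sexes (0.097% of everything tested) and 5 within the males (2.72%), with a median of 1.05. Their median was 1.62 in the males and 0.67 in the females, and all 9 had a larger difference in the males. The summed level of the urothelial keratins was 54.0 to 77.0 in controls and 65.5 to 89.1 in NEKO mice. Most of that sum came from the bright probes of Krt7 and Krt8 (control means 4.90 and 4.57), so it says little of the dimmer keratins. Krt7 and Krt8 differed by -0.27 (adjusted p = 0.38) and 0.34 (adjusted p = 0.20). The summed level of the 6 members was 1.13 to 2.64 in controls, 1.79 to 2.11 in NEKO females and 4.62 to 4.82 in NEKO males. The part of any of these cell types in the uroplakin differences was not tested.

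The named genes whose pattern over the 8 arrays was most like that of the uroplakins were sought among 13513 genes outside the members, by Pearson correlation with the mean of the standardised levels of the 5 uroplakins. That mean took Upk1a from its brighter probe, on which every NEKO kidney was below every control kidney. The mean was highest in NEKO 6 and NEKO 5 (1.09 and 0.91) and lowest in control 4 (-1.15). The 8 genes most like it were Csnk1d (r = 0.979), Arpc1b (0.977), Ctla2a (0.976), Serp2 (0.976), Syt13 (0.972), Igsf10 (0.970), 1700025G04Rik (0.967) and Mthfd1l (0.966). These values describe 8 arrays that the genes share and carry no test. Igsf10 had the widest range of the 8, from -3.97 in control 4 to -1.92 in NEKO 6, and Csnk1d the narrowest, from 4.37 to 4.63. None of the 8 was called in the comparison of the groups. Krt19 had r = 0.908, Krt5 0.777 and Krt20 0.744.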

How the data were processed

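Kidney RNA was labelled with Cy3 (1 colour). The authors deposited Agilent Feature Extraction 10.7.3.1 output, whose processed signal is a background-subtracted intensity per spot, not normalized between arrays. Their deposited log2 matrix matched the values recomputed here within 0.01 (100% of them) once each probe was centred, and its processing is not given in the sources used here.

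Outlier spots (73 to 172 of 43379 per array) were left out and spots of a probe averaged. Values are log2 processed signal less the 75th percentile of the array's non-control probes. Probes were kept with a value on 6 or more arrays and detection above background on 4 or more, and the brightest kept probe stood for its gene. Accessions were named through RefSeq (GRCm38.p6; 26690 of 41174 probes matched). The array annotation is mm9, so no gene coordinates are printed beyond the RefSeq windows.

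Genotype and sex were fitted with lmFit and eBayes in limma 3.58.1 (R 4.3.3), with Benjamini-Hochberg adjustment, and the code was tested on simulated data. Exact permutation tests (two-sided, 4 against 4) were run for single genes. The members, the 15 gene lists and the naming rule were chosen with earlier results of these data known. The rule takes all members, per list the called genes and the 3 largest differences, and the 8 genes most like the uroplakins. Not every gene that the rule takes is printed for the uroplakin traffic, tetraspanin, tubule and duct, smooth muscle, immune cell and Nrf2 target lists. Krt7, Krt8, Krt18, Krt20, Sprr2e, Krt10, Gpm6a, Gsta1, Gstm1, Gclc, Gclm, Hmox1, and marker genes given as absent, were named after their values were seen. The within-sex contrasts and the fits of single probes were likewise chosen after values were seen. Nothing in the labels gives litters, so p-values measure the spread between these mice only, and the number of arrays limits the precision.

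Alternatives were normexp (offset 50, on the median signal and local background), quantile normalization, scaling to the median of detected probes, other detection filters, the mean of kept probes, no sex term, eBayes with trend and robust, array weights, averaging over the sexes, the methods' comparison of 2 groups with unequal variances, the deposited matrix, and leaving out each mouse.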

Additional observations from a re-analysis of the deposited data

Results flagged for a closer look

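Among 14 groups of 4 mice looked at (7 kept probes in NEKO and in control mice), 1 held a mouse far from the other 3: NEKO 3 on the brighter Upk1a probe, at -2.76, where the other NEKO mice were at -1.48, -1.48 and -1.36. Its gap to the nearest mouse was 0.913 of the range of the group (0.9133), above Dixon's critical value for 4 samples. By chance about 1 in 20 groups is marked in this way.

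The second Trp63 probe, which entered no comparison, was well above background in 1 of the 8 kidneys, that of NEKO 2, at a log2 level of -4.04 (-4.042) against the array's 75th percentile. It was not well above background in any control.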

How the results depend on the processing

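The number of genes and transcripts called over both sexes, 44 (19 higher and 25 lower in NEKO mice), moved to 182 (68 and 114) under normexp, 93 (40 and 53) with a trend and robust eBayes, 98 (35 and 63) with array weights, 20 (8 and 12) where detection was asked on all 8 arrays, 515 (247 and 268) when the interaction model was averaged over the sexes, and 1 (0 and 1) or 2212 (943 and 1269) by the methods' comparison with or without adjustment. Leaving out each mouse in turn gave 17 to 41, with the lowest count without control 7.

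The count of members called over both sexes, 0, rose to 2 (Upk2 and Upk3b) averaged over the sexes and to 2 (the same genes) by the methods' comparison without adjustment, and stayed at 0 without any 1 mouse. The count of members whose male and female differences were called different, 0, rose to 1 under normexp (Upk2, 2.28, adjusted p = 0.045). The share of everything tested that was called in this contrast, or within the males, was counted under the main settings only. The within-male count of 4 was 3 to 4 under the other settings and 1 to 4 without 1 mouse. Upk2 was called within the males in all 17 alternative fits and Upk3b was not in 8 of the 17 (under normexp its adjusted p was 0.054 and without a filter on dim probes 0.086). Upk1a turned from -0.71 to 0.11 (0.1054) under the mean of its probes, and from -0.20 to 0.70 within the males. The cause of these shifts was not tested, except that Upk1a turned because its second probe entered the mean. No other member changed direction in any fit run. Scaling moved the median of all genes by less than 0.1.

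No paired analysis was possible because the mouse numbers in the labels run over both groups and none is shared. Each within-sex value rests on 2 mice against 2, and Ivl and the dim Trp63 probe were limited by their signal over background.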
